A study of Homo sapiens with 21 samples.

Results

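The genes described here are 10 members of the core machinery of apoptosis. They are the BH3-only genes PMAIP1 (NOXA), BBC3 (PUMA), BCL2L11 (BIM) and BID, the effectors BAX and BAK1, the guardians MCL1, BCL2 and BCL2L1 (BCL-XL), and TNFRSF10B, which encodes death receptor DR5. They were chosen by name, as the rows of the deposited gene table whose Ensembl identifier maps to these symbols. Each symbol was found once, so 10 of 60671 genes are described, and all 10 were among the 14012 genes with enough counts to be tested. Polyadenylated RNA was sequenced from OCI-AML3 cells, an acute myeloid leukaemia line that carries mutations in NPM1 and DNMT3A, and from HEK293T cells, an embryonic kidney line that carries adenovirus E1 genes and the SV40 large T antigen, a protein that binds p53. DMSO or 1 μg/mL tunicamycin was given to OCI-AML3 cells for 4 h or 24 h, and a further group of them was taken untreated at 0 h. HEK293T cells received DMSO or 1 μg/mL tunicamycin for 24 h. Each of these 7 groups has 3 libraries. The labels do not say that replicates were separate cultures, so p-values measure the spread between these libraries, which may be technical.

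BH3-only proteins are the sensors of the family: they bind and occupy the guardians, and some of them also switch on BAX and BAK directly. Once active, BAX and BAK form pores in the outer mitochondrial membrane and release cytochrome c, while the guardians hold them in check. DR5 works from outside the cell, where it binds the ligand TRAIL and recruits FADD and caspase-8, and BID is the caspase-8 substrate that links this receptor to the mitochondria. Tunicamycin blocks N-linked glycosylation, so that unfolded proteins collect in the endoplasmic reticulum, and the unfolded protein response factors ATF4 and CHOP (DDIT3) are known regulators of PMAIP1, BBC3 and TNFRSF10B. The comparisons ask how far RNA of each member changed under this stress at an early and a late time and in a second line.

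Libraries held 13838480 to 19961819 counts, and levels are given as CPM, counts scaled to the TMM-adjusted size of each library. The lowest correlation between libraries of a group was 0.985. Of 9 myeloid markers, 8 averaged 9 CPM or more in every OCI-AML3 group, MPO averaged 1.03 to 1.52 CPM there, and all except CEBPA (10.8 and 12.9 CPM) averaged under 1 CPM in HEK293T cells. NEFL, NEFM and CDH2 averaged 42.3 to 135 CPM in HEK293T cells and at most 3.78 CPM in OCI-AML3 cells, whereas LHX1 did not separate the lines and EPCAM stayed under 1 CPM in both. Of the 9 genes listed as HEK293T markers, 3 had enough counts to be tested, and 2 were higher there with DMSO at 24 h. In OCI-AML3 cells 1 library at 24 h and 1 at 4 h stand apart from their group in the members. Replicate 3 with tunicamycin at 24 h was the highest of its group for MCL1, BCL2, BCL2L11, PMAIP1 and TNFRSF10B and the lowest for BAX, BAK1, BID, BBC3 and BCL2L1. Its GC-rich genes, the 10% with the highest exon GC content, stood -0.01 log2 units from the GC-poor 10%, against 0.51 and 0.35 in the other libraries of its group and 0.64 to 0.88 in DMSO treated cells at 24 h. Exon GC content put BBC3 at the percentile 96.1 of tested genes, BAX at 86.9 and BAK1 at 81.1. Replicate 1 with DMSO at 4 h was in turn the lowest of its group for MCL1, BCL2, BCL2L11, PMAIP1 and TNFRSF10B and the highest for BAX, BAK1, BID, BBC3 and BCL2L1. The chi-square per degree of freedom over all genes was 19.6 and 18.99 between it and the other libraries of its group and 3.84 between those, and 15.53 and 22.49 against 7.57 for the 24 h library. By that measure the third DMSO library at 24 h (9.81 and 9.67 against 4.29) and the second untreated one (9.28 and 10.05 against 4.49) also stood apart. Values or adjusted p-values of the members without the third tunicamycin library at 24 h or the first DMSO library at 4 h are given with the results. What part base composition has in these values was not tested further.

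The promoters of the BH3-only genes that passed the test at 4 h are shown because these genes moved in different directions. RefSeq windows (GRCh38.p14) run from 250 bases before to 50 bases after the annotated start, and 8 of the 10 genes matched an entry, all but MCL1 and TNFRSF10B. PMAIP1 (NOXA) is at chr18:59899746-59900045 on the plus strand and BBC3 (PUMA) at chr19:47232618-47232917 on the minus strand. BCL2L11 (BIM) is at chr2:111120664-111120963 on the plus strand. Capitals mark CGTCA in PMAIP1, the reverse complement of the cAMP response element half-site TGACG bound by ATF/CREB factors, and GTAAACA in BCL2L11, a FOXO site.
PMAIP1: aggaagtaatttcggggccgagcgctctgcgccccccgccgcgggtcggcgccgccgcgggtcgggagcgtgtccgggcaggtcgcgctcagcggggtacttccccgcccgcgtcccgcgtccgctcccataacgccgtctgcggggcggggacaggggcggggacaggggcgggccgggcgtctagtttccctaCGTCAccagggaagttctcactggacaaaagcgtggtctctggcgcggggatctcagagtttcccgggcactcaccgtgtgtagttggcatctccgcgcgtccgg
BBC3: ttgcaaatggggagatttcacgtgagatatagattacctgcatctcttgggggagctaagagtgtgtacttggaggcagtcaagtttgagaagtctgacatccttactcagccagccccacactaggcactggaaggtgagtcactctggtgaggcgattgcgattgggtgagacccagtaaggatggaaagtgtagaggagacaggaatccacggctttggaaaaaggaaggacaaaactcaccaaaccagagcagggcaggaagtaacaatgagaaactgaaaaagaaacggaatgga
BCL2L11: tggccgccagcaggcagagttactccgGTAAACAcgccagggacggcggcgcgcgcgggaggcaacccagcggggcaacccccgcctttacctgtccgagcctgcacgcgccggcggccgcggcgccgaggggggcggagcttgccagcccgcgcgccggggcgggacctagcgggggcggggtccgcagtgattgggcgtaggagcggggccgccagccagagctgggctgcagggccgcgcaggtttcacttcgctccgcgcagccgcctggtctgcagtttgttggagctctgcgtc

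Both strands of the windows were searched for 7 motifs. The half-site TGACG, which is also part of TGACGTCA and TGACGTGG, lies 55 bases before the start of PMAIP1 and once each in windows of BCL2, BAX and BCL2L1, and 24.5% of all 35097 RefSeq windows hold it. The FOXO site GTAAACA lies 223 bases before the start of BCL2L11, and 3.42% of windows hold it. The p53 half-site was found in BAK1 only, 73 bases before the start, and in 6.64% of all windows. No window of these genes holds the C/EBP-ATF response element TGATGNAA, which 3.62% of windows hold, or TGACGTCA (1.85%). The unfolded protein response element TGACGTGG (0.729%) and the ER stress response element, CCAAT and CCACG with 9 bases between them (0.0769%), were not found there either. A match says only that these letters are present.

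In OCI-AML3 cells at 4 h, PMAIP1, TNFRSF10B and BBC3 rose and BCL2L11 fell, while MCL1, BCL2, BCL2L1, BAX, BAK1 and BID did not pass the test. These are 4 of 10 members at an adjusted p of at most 0.05, where 37.5% of all tested genes passed. PMAIP1 alone was also past a log2 fold change of 1, as were 4.92% of all genes in either direction. The libraries of the treated and control groups did not overlap for these same 4 members, against 46.3% of all genes. The median log2 fold change of the 10 members was 0.01, beside -0.02 for all tested genes. Without the first DMSO library these 4 members kept their calls, at 2.0 for PMAIP1, 0.74 for TNFRSF10B, 0.73 for BBC3 and -0.29 for BCL2L11 on the log2 scale, and BCL2 also passed. The values of the others without it were 0.02 for MCL1, 0.17 for BCL2L1, -0.07 for BAX, 0.10 for BAK1 and 0.03 for BID, none of which passed.

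**Figure D1:**
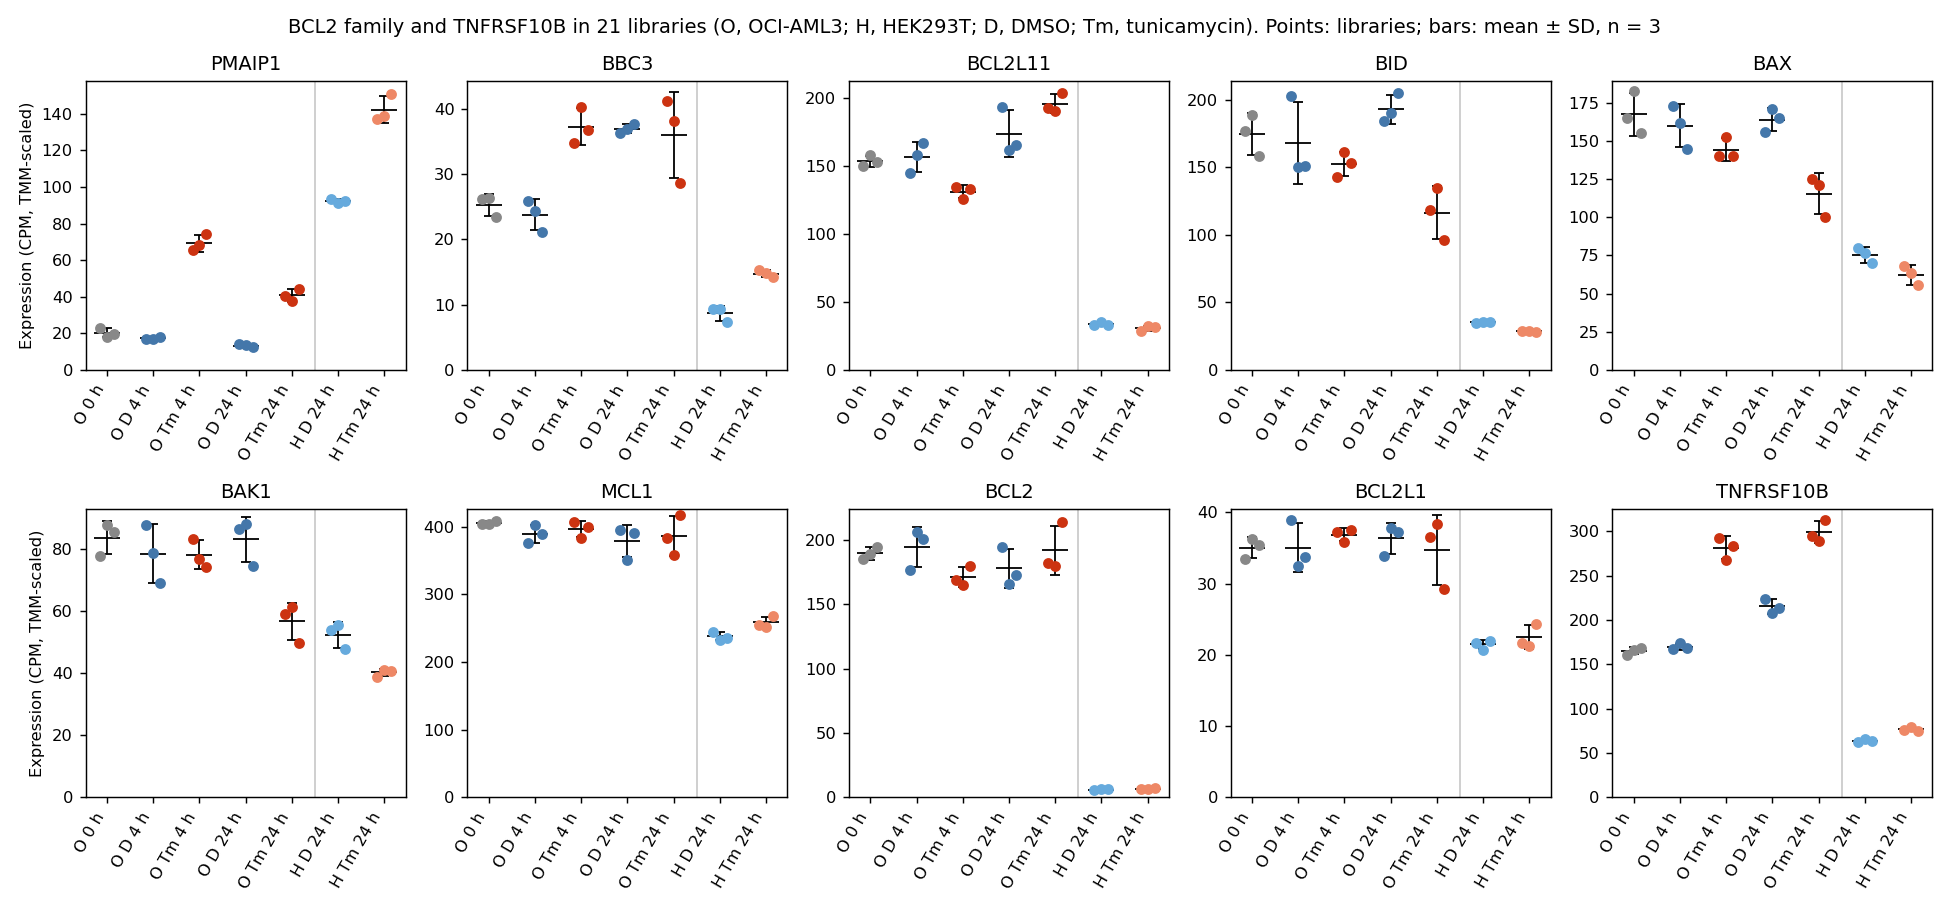
CPM of each of the 10 genes in all 21 libraries, by group, with the mean and SD of 3 libraries as bars. PMAIP1 separates every tunicamycin group from its control, MCL1 lies between 351 and 417 CPM in all OCI-AML3 libraries, and BCL2 lies under 8 CPM in every HEK293T library.

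PMAIP1 (ENSG00000141682, chr18:59899996-59904305, plus strand) encodes NOXA, a BH3-only protein that binds mainly MCL1. In OCI-AML3 cells at 4 h it stood at 16.7, 17 and 18 CPM with DMSO and at 65.4, 68.1 and 74.4 CPM with tunicamycin. Every treated library was well above every control. It rose 4.01-fold, a log2 fold change of 2.0 (SE 0.09, adjusted p = 1.9e-14, edgeR quasi-likelihood test). At 24 h the DMSO libraries held 14.1, 13.5 and 12.2 CPM and the tunicamycin libraries 40.4, 37.5 and 44.4 CPM, again without overlap. The rise was 3.08-fold (log2 1.62, SE 0.09, adjusted p = 2.8e-12), and on the log2 scale 1.59 without the third treated library and 1.52 with the GC trend taken out. HEK293T cells began higher, at 93.3, 91.1 and 92.4 CPM, and reached 137, 139 and 151 CPM. There the rise was 1.54-fold (log2 0.62, SE 0.08, adjusted p = 1.9e-06). Among 14012 genes PMAIP1 ranked 128 by log2 fold change at 4 h, 170 at 24 h and 831 in HEK293T cells.

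Over all 7 groups PMAIP1 was highest in HEK293T cells with tunicamycin (142 CPM ± 7.58, SD, n = 3), then in HEK293T cells with DMSO (92.3 CPM), and both lay above OCI-AML3 cells with tunicamycin at 4 h (69.3 CPM) and 24 h (40.7 CPM). Untreated OCI-AML3 cells (20.2 CPM) and DMSO treated cells at 4 h (17.2 CPM) were neighbours that did not differ beyond their spread (adjusted p = 0.56), and DMSO treated cells at 24 h were lowest (13.3 CPM). Every other pair of neighbours in this order differed at an adjusted p of at most 0.05. The untreated libraries, at 22.9, 18.1 and 19.7 CPM, all lay above the DMSO libraries at 4 h, a separation shown by 10.7% of all genes.

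BBC3 (ENSG00000105327, chr19:47220822-47232766, minus strand) encodes PUMA, a BH3-only protein that binds every main guardian and is a classical p53 target. At 4 h OCI-AML3 cells held 25.9, 24.3 and 21.2 CPM with DMSO and 34.8, 40.3 and 36.8 CPM with tunicamycin. The groups did not overlap, and BBC3 rose 1.57-fold (log2 0.65, SE 0.11, adjusted p = 7.8e-05). At 24 h the DMSO treated cells had themselves reached 36.3, 37.0 and 37.7 CPM, and the tunicamycin libraries, at 41.2, 38 and 28.6 CPM, lay on both sides of them. The log2 fold change at 24 h was -0.05 (95% interval -0.28 to 0.18, adjusted p = 0.74). Without the third treated library it was 0.14 (adjusted p = 0.29), and with the GC trend taken out, an alternative chosen after seeing the data, it was 0.18 (adjusted p = 0.047). Adjusted p-values for this gene and time ran from 0.047 to 0.99 over the alternatives. HEK293T cells went from 9.28, 9.37 and 7.36 CPM to 15.3, 14.8 and 14.2 CPM. This was a rise of 1.71-fold (log2 0.78, SE 0.13, adjusted p = 8.5e-05), the largest among the 10 members in that line.

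BCL2L11 (ENSG00000153094, chr2:111119378-111168444, plus strand) encodes BIM, a BH3-only protein that can activate BAX directly and is a known FOXO target. It fell at 4 h, from 145, 158 and 167 CPM with DMSO to 135, 126 and 133 CPM with tunicamycin. The groups did not overlap, and the log2 fold change was -0.26 (SE 0.07, adjusted p = 0.0056). At 24 h the order was turned: the DMSO libraries held 194, 162 and 166 CPM and the tunicamycin libraries 193, 191 and 204 CPM, which overlap. The log2 fold change of 0.17 (SE 0.07, adjusted p = 0.046) lay at the threshold, and its adjusted p ran from 0.0015 to 0.24 over the alternatives, with 0.064 without the third treated library, 0.082 without the second DMSO library and 0.059 without the third DMSO library. The call was also lost with the replicate block. Over the alternatives the log2 fold change stayed between 0.13 and 0.30. With the GC trend taken out the log2 fold change was 0.20 (adjusted p = 0.018). In HEK293T cells the 3 DMSO libraries, at 33.1, 35.3 and 33.0 CPM, lay above the treated ones, at 28.6, 31.9 and 31.2 CPM. That log2 difference of -0.15 did not pass the test (adjusted p = 0.18). BCL2L11 shares 727 exon bases with MIR4435-2HG on the other strand, a non-coding gene whose log2 fold changes were -0.28 at 4 h, -0.41 at 24 h and 0.06 in HEK293T cells. Whether counting used the strand is not given in the sources used here.

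BID (ENSG00000015475, chr22:17734138-17774770, minus strand) is the BH3-only gene whose protein caspase-8 cleaves. At 4 h the treated libraries, at 143, 161 and 153 CPM, overlapped the controls, at 203, 150 and 151 CPM. The log2 fold change of -0.14 did not pass the test (adjusted p = 0.33) and was 0.03 without the first DMSO library. At 24 h BID was 184, 190 and 205 CPM with DMSO and 118, 135 and 95.8 CPM with tunicamycin. Every treated library was below every control, and BID fell by 0.73 on the log2 scale (SE 0.11, adjusted p = 8.4e-06), to 0.602 of the control. Without the third treated library the log2 fold change was -0.57 (adjusted p = 2.0e-04), and with the GC trend taken out -0.65 (adjusted p = 3.6e-06). HEK293T cells held 34.5, 35.6 and 35.2 CPM with DMSO and 28.9, 28.5 and 27.8 CPM with tunicamycin. The groups did not overlap, but the log2 fold change of -0.30 had an adjusted p of 0.065, and this ran from 7.4e-04 to 0.15 over the alternatives.

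At 24 h in OCI-AML3 cells, then, 6 of 10 members passed the test, beside 51.1% of all genes. PMAIP1, TNFRSF10B and BCL2L11 rose, and BAX, BAK1 and BID fell. The call of BCL2L11 was lost in 7 of 16 alternatives. PMAIP1 alone was past a log2 fold change of 1, as were 6.32% of all genes. Libraries did not overlap for 5 members, beside 52.8% of all genes, and the median log2 fold change was -0.01 both for the members and for all genes. In HEK293T cells 5 of 10 members passed, beside 25.7% of all genes: BBC3, PMAIP1 and TNFRSF10B rose, BAX and BAK1 fell, and no member was past a log2 fold change of 1 (2.13% of all genes were). There the libraries of 8 members did not overlap, beside 49.1% of all genes. In bulk RNA, fewer cells with a transcript and less of it per cell cannot be told apart.

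**Figure D2:**
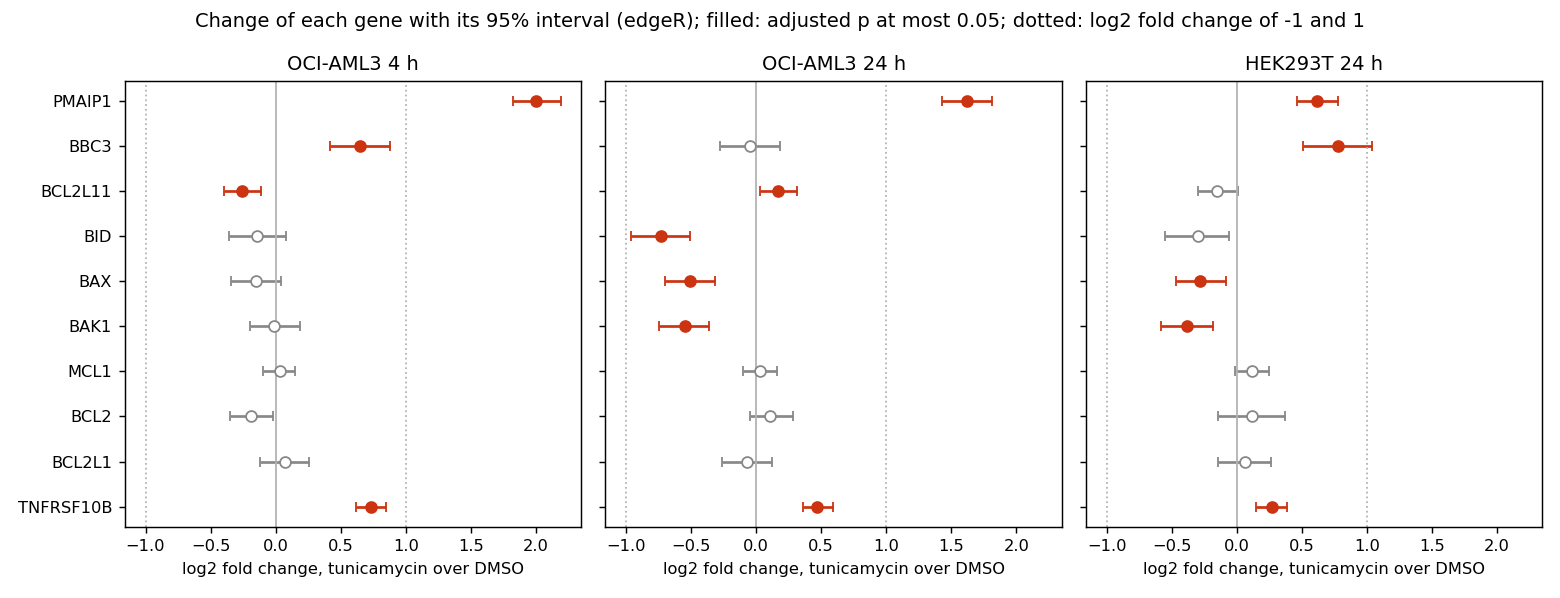
Log2 fold change of tunicamycin over DMSO for each of the 10 genes (horizontal axis) with its 95% interval, with OCI-AML3 cells (4 h, then 24 h) and HEK293T cells (24 h) in panels of their own. Filled points passed an adjusted p of at most 0.05. PMAIP1 is the only gene past the dotted line at 1, and the intervals of MCL1, BCL2L1 and BAK1 at 4 h include 0.

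BAX (ENSG00000087088, chr19:48954815-48961798, plus strand) and BAK1 (ENSG00000030110, chr6:33572547-33580293, minus strand) encode the effectors that form the pore. At 4 h BAX was 173, 162 and 145 CPM with DMSO and 140, 153 and 140 CPM with tunicamycin, and these overlap (log2 fold change -0.15, adjusted p = 0.2). At 24 h BAX stood at 156, 171 and 165 CPM with DMSO and at 125, 121 and 100 CPM with tunicamycin. Treated libraries were below all controls, and BAX fell by 0.51 on the log2 scale (SE 0.09, adjusted p = 7.5e-05). Without the third treated library the log2 fold change was -0.38 (adjusted p = 0.0027). With the GC trend taken out it was -0.33 (adjusted p = 7.5e-05). In HEK293T cells BAX went from 80.2, 76.6 and 69.9 CPM to 68.1, 63.7 and 55.3 CPM. The groups did not overlap, but this fall of 0.28 on the log2 scale (SE 0.09, adjusted p = 0.033) was lost without the first or second DMSO library (adjusted p = 0.14 and 0.093) or without the second or the third treated one (adjusted p = 0.063 and 0.18), within a range of 0.0031 to 0.18 over the alternatives.

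BAK1 did not pass the test at 4 h, with 88.0, 78.8 and 69.1 CPM with DMSO and 83.5, 77.0 and 74.3 CPM with tunicamycin (log2 fold change -0.01, 95% interval -0.20 to 0.19, adjusted p = 0.97). At 24 h it stood at 86.5, 88.3 and 74.8 CPM with DMSO and at 59.2, 61.3 and 49.9 CPM with tunicamycin. All treated libraries were lower, and BAK1 fell by 0.55 on the log2 scale (SE 0.09, adjusted p = 4.4e-05). The value was -0.43 without the third treated library (adjusted p = 0.0013) and -0.39 with the GC trend taken out (adjusted p = 1.7e-04). HEK293T cells held 54.0, 55.7 and 47.8 CPM with DMSO and 39.0, 41.2 and 40.8 CPM with tunicamycin, a fall of 0.38 on the log2 scale without overlap (SE 0.10, adjusted p = 0.005). Over all 21 libraries, with each line's mean taken out, the Pearson correlation of log2 CPM was 0.88 between BAX and BAK1, 0.91 between BAX and BID and 0.85 between BAK1 and BID. These libraries differ by group and in GC composition, so the values are a description.

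MCL1, BCL2 and BCL2L1 did not pass the test in any of the 3 comparisons. MCL1 (ENSG00000143384, chr1:150560895-150579738, minus strand), whose protein is short-lived and is the main partner of NOXA, stood at 376, 402 and 389 CPM with DMSO and 407, 383 and 399 CPM with tunicamycin at 4 h. At 24 h these were 395, 351 and 390 CPM and 383, 358 and 417 CPM. Both pairs of groups overlap, and the log2 fold changes were 0.03 (95% interval -0.10 to 0.15) and 0.03 (-0.10 to 0.16). With the GC trend taken out they were -0.01 and -0.02, and at 24 h the value was 0.01 without the third treated library. In HEK293T cells the treated libraries, at 255, 252 and 268 CPM, were all above the controls, at 245, 233 and 236 CPM. That log2 fold change of 0.12 (-0.01 to 0.25) had an adjusted p of 0.17, or 0.011 where the HEK293T groups were fitted alone, within a range of 0.011 to 0.59 over the alternatives.

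BCL2 (ENSG00000171791, chr18:63123346-63320128, minus strand), the guardian that the leukaemia drug venetoclax binds, held 177, 206 and 201 CPM with DMSO and 169, 165 and 180 CPM with tunicamycin at 4 h. One control lay inside the treated range. The log2 fold change was -0.19 (95% interval -0.35 to -0.02, adjusted p = 0.069). It passed the test without the first DMSO library (-0.23, adjusted p = 0.03) and with the GC trend taken out (-0.25, adjusted p = 0.0045), in a range of 0.0045 to 0.23 over the alternatives. The replicate block also let it pass. At 24 h the libraries, at 195, 166 and 173 CPM with DMSO and 182, 180 and 214 CPM with tunicamycin, overlapped (log2 0.11, -0.05 to 0.28), although without the first DMSO library the value was 0.23 (adjusted p = 0.034, range 0.034 to 0.92). It was 0.07 without the third treated library and 0.02 with the GC trend taken out. HEK293T cells held little BCL2 RNA, 5.54, 6.43 and 6.54 CPM with DMSO and 6.36, 6.26 and 7.59 CPM with tunicamycin. Their log2 fold change was 0.12, with a wider interval of -0.14 to 0.37 on 108 to 143 counts per library.

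BCL2L1 (ENSG00000171552, chr20:31664452-31723989, minus strand) encodes BCL-XL from its long splice form and the pro-apoptotic BCL-XS from its short one, and gene-level counts cannot separate these, nor the isoforms of MCL1 and BCL2L11. It stood at 38.9, 32.5 and 33.7 CPM with DMSO and 37.2, 35.8 and 37.5 CPM with tunicamycin at 4 h. At 24 h it was 33.9, 37.8 and 37.3 CPM against 36.5, 38.4 and 29.2 CPM, and in HEK293T cells 21.7, 20.7 and 22.0 CPM against 21.7, 21.3 and 24.4 CPM. All of these groups overlap. The log2 fold changes were 0.07 (95% interval -0.12 to 0.26), -0.07 (-0.26 to 0.12) and 0.06 (-0.14 to 0.26). The 24 h value changed sign, to 0.08 without the third treated library and to 0.07 with the GC trend taken out. ABALON, a non-coding gene that shares 1735 exon bases with BCL2L1 on the other strand, stood at 5.14 to 10.2 CPM and did not pass the test in any comparison.

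TNFRSF10B (ENSG00000120889) encodes DR5, the TRAIL receptor. At 4 h OCI-AML3 cells held 167, 174 and 168 CPM with DMSO and 293, 268 and 284 CPM with tunicamycin. The groups lay far apart, and TNFRSF10B rose 1.66-fold (log2 0.73, SE 0.05, adjusted p = 3.0e-10). At 24 h the controls were higher, at 224, 208 and 214 CPM, and the treated libraries reached 295, 289 and 313 CPM. Again no library overlapped, and the rise was 1.39-fold (log2 0.47, adjusted p = 2.7e-07). It was 0.48 on the log2 scale without the third treated library and 0.54 with the GC trend taken out. HEK293T cells went from 62.3, 65.5 and 63.6 CPM to 76.6, 79.0 and 74.7 CPM, 1.2-fold (log2 0.27, SE 0.06, adjusted p = 0.0012). In the order of the groups, the 2 tunicamycin groups of OCI-AML3 cells (299 and 282 CPM) did not differ beyond their spread (adjusted p = 0.18), nor did untreated cells and DMSO treated cells at 4 h (165 and 169 CPM, adjusted p = 0.9). RHOBTB2 shares 377 exon bases on the other strand and did not rise in any comparison: its log2 fold changes were -0.39, 0.02 and -0.42.

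The controls themselves were compared to see how far time in culture moved the members. No gene of 14012 passed the edgeR test between DMSO at 4 h and untreated cells (0%), with 1160 genes at an unadjusted p under 0.05, 1 of the 10 members (PMAIP1) among them. limma voom called 0 genes there and DESeq2 19. Between DMSO at 24 h and DMSO at 4 h, 3 members passed, beside 42.6% of all genes. BBC3 rose (log2 0.64, adjusted p = 1.1e-04), TNFRSF10B rose (log2 0.35, adjusted p = 2.9e-05) and PMAIP1 fell (log2 -0.38, adjusted p = 0.0033). With the GC trend taken out these were 0.44, 0.32 and -0.24, and all 3 still passed. BBC3 in untreated cells was 26.2, 26.3 and 23.4 CPM, so the 24 h controls were above all untreated libraries.

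The effect of tunicamycin differed between 24 h and 4 h for 8 of 10 members, beside 35.3% of all genes. No member was past both thresholds, as were 6.06% of all genes. Each effect has its own control group. The effect on BBC3 was smaller at 24 h by 0.70 on the log2 scale (adjusted p = 0.0016), and those on PMAIP1 and TNFRSF10B were smaller by 0.38 and 0.26 (adjusted p = 0.022 and 0.011), as log2 differences of -0.70, -0.38 and -0.26. BID (-0.59, adjusted p = 0.0043), BAK1 (-0.55, adjusted p = 0.0026) and BAX (-0.36, adjusted p = 0.032) were lower at 24 h. BCL2L11 (0.43, adjusted p = 0.0019) and BCL2 (0.30, adjusted p = 0.042) moved the other way. BBC3, BCL2L11, BAK1 and BID kept their call in all 22 alternatives, while BAX, BCL2, PMAIP1 and TNFRSF10B lost it in 12, 10, 10 and 5 of them.

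At 24 h the effect differed between HEK293T and OCI-AML3 cells for 3 members, beside 26.8% of all genes, and none was past both thresholds (4.89% of all genes were), although PMAIP1 lay at the line. PMAIP1 rose less in HEK293T cells, by a log2 difference of -1.0 (SE 0.12, adjusted p = 2.4e-06). BBC3 was higher by 0.82 (SE 0.17, adjusted p = 0.001), and BCL2L11 was lower by 0.31, a log2 difference of -0.31 (adjusted p = 0.028). For BID the difference of 0.43 (95% interval 0.09 to 0.76) had an adjusted p of 0.052, and for TNFRSF10B -0.21 (-0.37 to -0.04) one of 0.056. TNFRSF10B passed in 13 of 22 alternatives and BID in 4, which include the replicate block.

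Without stress, the lines differed in all 10 members at 24 h in DMSO, where 82.7% of all genes passed, and 7 members were past a log2 fold change of 1 (45.2% of all genes). BCL2 was the member that differed most, with a log2 fold change of -4.85 in HEK293T against OCI-AML3 cells. Also lower were BID (-2.46), BCL2L11 (-2.37), BBC3 (-2.10), TNFRSF10B (-1.75) and BAX (-1.12). BCL2L1 (-0.76), MCL1 (-0.67) and BAK1 (-0.67) differed less, and PMAIP1 alone was higher in HEK293T cells (2.80), the second largest difference in size. Levels of different genes compare only per length, as RPKM, here the CPM per kilobase of all annotated exons of a gene. The length of the transcripts expressed was not determined, so the order of genes close in RPKM depends on this choice. On that scale BAX (63.4 RPKM) and MCL1 (60.9 RPKM) led in OCI-AML3 cells and BCL2L1 (8.65 RPKM) and PMAIP1 (6.06 RPKM) were lowest. In HEK293T cells PMAIP1 (42.2 RPKM) and MCL1 (38.2 RPKM) led, and BCL2 was lowest at 0.489 RPKM.

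**Figure D3:**
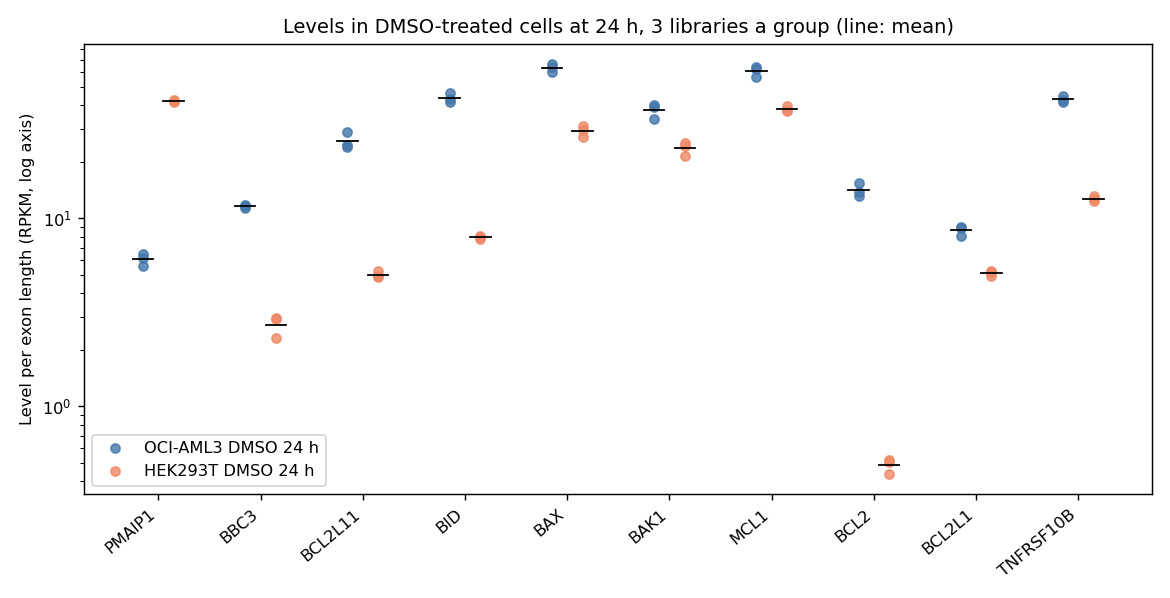
Level per exon length (RPKM, logarithmic axis) of the 10 genes in DMSO treated OCI-AML3 and HEK293T cells at 24 h, with 3 libraries a group as points and the mean as a line. PMAIP1 is the only gene whose HEK293T points lie above the OCI-AML3 points, and BCL2 is separated most.

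Because NOXA binds MCL1, the ratio of their RNA was taken per library. PMAIP1 over MCL1 in RPKM was 0.126 ± 0.00596 (SD, n = 3) with DMSO at 4 h and 0.498 ± 0.0379 with tunicamycin. At 24 h it was 0.0999 ± 0.00998 and 0.30 ± 0.00225, and in HEK293T cells 1.10 ± 0.0187 and 1.56 ± 0.0372. The highest control ratio was 0.132, 0.109 and 1.12 and the lowest treated one 0.457, 0.298 and 1.53, so the groups were apart in each comparison. They are ratios of RNA whose size depends on the exon lengths used, and they say nothing of the proteins.

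Genes whose pattern was most like that of PMAIP1 were sought over all 21 libraries, by Pearson correlation of log2 CPM with each line's mean taken out. SLC39A14 (r = 0.986), a metal ion transporter, SLC7A11 (r = 0.983), the cystine-glutamate exchanger, and FICD (r = 0.972), which modifies the chaperone BiP, came first. PMAIP1 itself had an r of 0.77 with TNFRSF10B, 0.44 with BBC3 and -0.34 with BCL2L11. With BID, BAX and BAK1 its r was -0.63, -0.61 and -0.46, and with MCL1, BCL2 and BCL2L1 0.26, -0.10 and 0.06.

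The other genes of the pathway were read from 9 lists by role, 72 genes of which 61 were tested. At 4 h 21 were higher and 11 lower, at 24 h 23 and 17, and in HEK293T cells 12 and 9. These are 52.5%, 65.6% and 34.4% of those tested, beside 37.5%, 51.1% and 25.7% of all genes. Medians of their log2 fold changes were 0.08, 0.11 and 0.00. The 13 ER stress and p53 regulators among the 61 genes held 11, 12 and 9 of the calls. The lists were chosen with earlier results of these data known, so the shares describe the lists and are no test of the pathway. Some tested genes, such as RIPK3 and CASP4, had 0 counts in HEK293T cells.

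**Figure D4:**
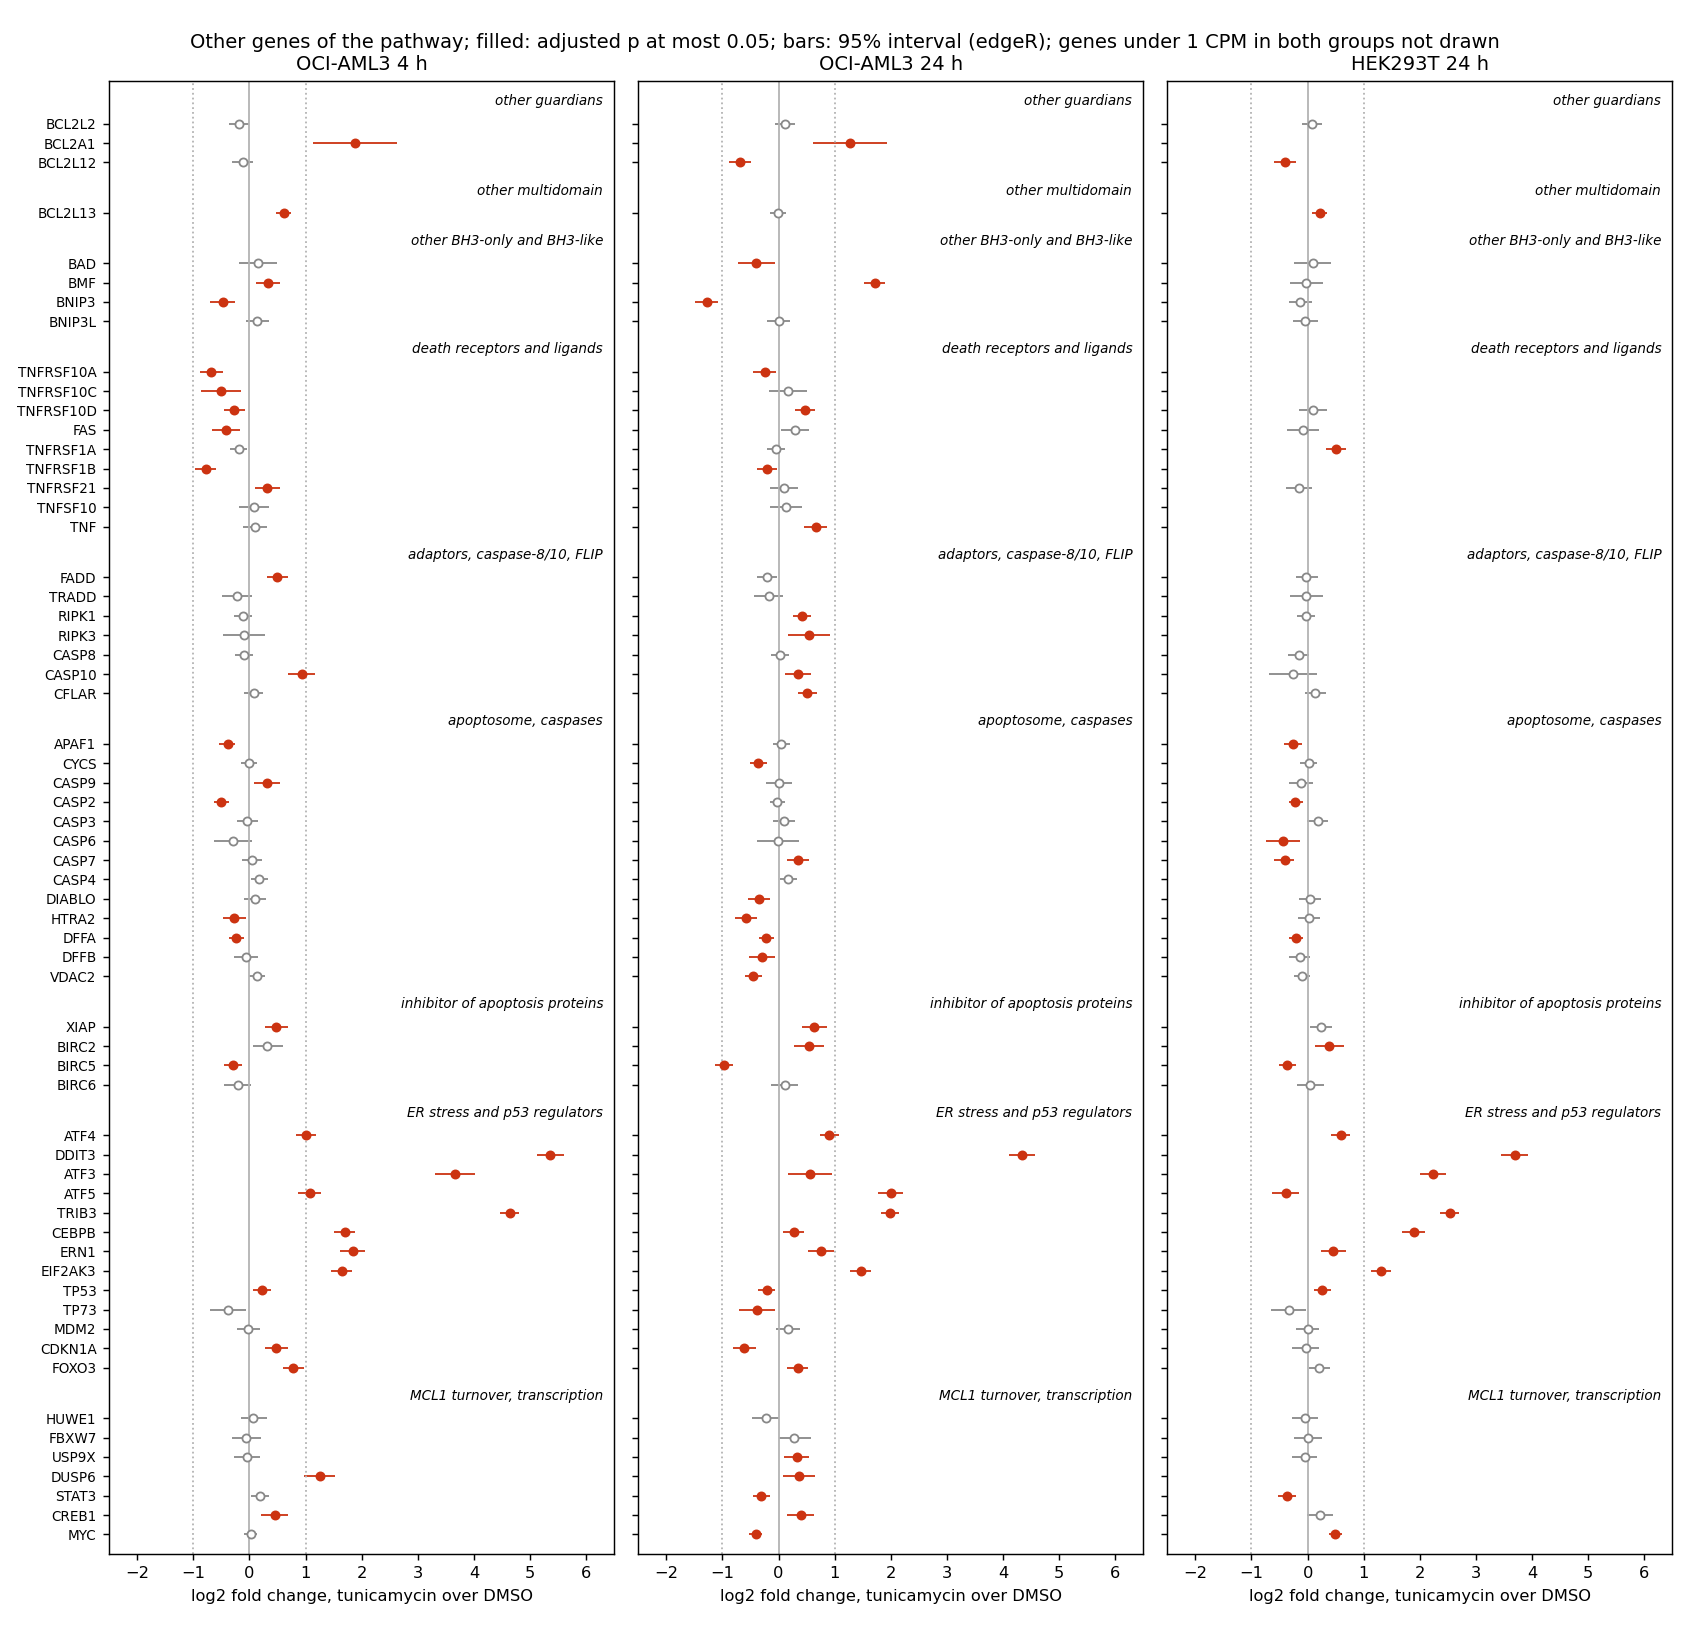
Log2 fold change of tunicamycin over DMSO (horizontal axis) with its 95% interval for the other genes of the pathway, by role, in the 3 comparisons. Filled points passed an adjusted p of at most 0.05. DDIT3 lies farthest right in each panel, BMF has a log2 fold change of 0.33 at 4 h and 1.71 at 24 h in OCI-AML3 cells, and genes under 1 CPM in both groups are not drawn.

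Among the other BCL2 proteins, BCL2A1, a guardian of blood cells, rose on low counts, from a mean of 0.787 to 2.89 CPM at 4 h (log2 1.88, SE 0.35, adjusted p = 3.3e-04) and from 1.64 to 3.96 CPM at 24 h (log2 1.27, adjusted p = 0.0023). HEK293T cells had 0 counts of it, at least 10.9-fold lower than OCI-AML3 cells at 24 h in DMSO, counted against a floor of 3 counts per library. BMF, a BH3-only gene, rose from 13.2 to 16.6 CPM at 4 h (log2 0.33, adjusted p = 0.015) and from 27.5 to 90.2 CPM at 24 h (log2 1.71, SE 0.09, adjusted p = 7.6e-13). The call at 4 h was lost without the third DMSO library, without the first treated one and with the filter lowered to 1 count (adjusted p = 0.053, 0.097 and 0.081, range 0.0043 to 0.097). In HEK293T cells BMF averaged 3.50 CPM with DMSO and 3.47 CPM with tunicamycin. BNIP3, a BH3-like mitophagy gene, fell by 0.48 on the log2 scale at 4 h and by 1.28 at 24 h (adjusted p = 7.4e-10), where its DMSO control averaged 168 CPM against 37.1 CPM at 4 h. BCL2L13 rose at 4 h (log2 0.61) and in HEK293T cells (0.22), the latter not without the second DMSO or second treated library (adjusted p = 0.062 and 0.093, range 8.7e-04 to 0.15). BCL2L12 fell at 24 h (-0.69) and in HEK293T cells (-0.40). BCL2L2 (-0.18, 0.12 and 0.08) and BNIP3L (0.14, 0.01 and -0.04) did not pass the test in any comparison, and BAD fell at 24 h (-0.40, adjusted p = 0.04), a call that held in 5 of 16 alternatives and was -0.19 without the third treated library (adjusted p = 0.37). HRK, a BH3-only gene of neural cells, was outside the main filter because HEK293T cells alone held it. With a filter of 1 CPM in 3 libraries it rose there from 8.97 to 24.0 CPM (log2 1.42, SE 0.14, adjusted p = 4.3e-06). BIK, another BH3-only gene outside the main filter, which uses CPM before TMM scaling, fell with that looser filter at 4 h in OCI-AML3 cells, from 1.09 to 0.445 CPM on at most 22 counts per library (log2 -1.30, SE 0.42, adjusted p = 0.02). Both are named after their values were seen.

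Of 12 death receptors and ligands 9 were tested. At 4 h in OCI-AML3 cells 1 rose and 5 fell (66.7%, beside 37.5% of all genes), at 24 h 2 rose and 2 fell (44.4%, beside 51.1%), and in HEK293T cells 1 rose (11.1%, beside 25.7%). The HEK293T share includes genes that passed the filter through OCI-AML3 cells only. In HEK293T cells TNFRSF10A and TNFSF10 had 0 counts, and TNFRSF10C, TNF and TNFRSF1B averaged at most 0.194 CPM. A change of these genes could hardly be called there, so that share is not read as a shortfall. TNFRSF10A, which encodes DR4, the other signalling TRAIL receptor, fell from 15.7 to 9.83 CPM at 4 h (log2 -0.68, adjusted p = 2.7e-05), and TNFRSF1B, a TNF receptor, fell by 0.78 on the log2 scale (adjusted p = 4.1e-07). Both kept this call in all 16 alternatives. The decoy receptors TNFRSF10C and TNFRSF10D (log2 -0.51 and -0.27) and FAS (-0.42, adjusted p = 0.0084) also fell, and TNFRSF21 rose (0.32, adjusted p = 0.027). FAS lost its call without the second treated library (adjusted p = 0.051), and TNFRSF10D without the third DMSO or the first or second treated library (0.076, 0.08 and 0.06). TNFRSF10C and TNFRSF21 lost theirs without the first or the third library of either group, with adjusted p-values of up to 0.12 and 0.14. Over the alternatives the log2 fold changes kept their sign. They were -0.52 to -0.36 for FAS, -0.30 to -0.24 for TNFRSF10D, -0.63 to -0.40 for TNFRSF10C and 0.24 to 0.42 for TNFRSF21. At 24 h TNFRSF10D rose from 55.5 to 77.1 CPM (log2 0.47, adjusted p = 6.7e-05) in all 16 alternatives, and the falls of TNFRSF10A (-0.25, adjusted p = 0.033) and TNFRSF1B (-0.21, adjusted p = 0.043) held in only 2 and 4 of them, each lost on leaving out any of several single libraries, with adjusted p-values of up to 0.28 and 0.79. FAS had a log2 fold change of 0.29 at 24 h (adjusted p = 0.051, range 0.012 to 0.67). TNFRSF1A was the receptor of these lists that rose in HEK293T cells (log2 0.50, adjusted p = 1.6e-04). At 4 h in OCI-AML3 cells its log2 fold change of -0.19 lay just outside the threshold (adjusted p = 0.05 when rounded, range 0.019 to 0.25) and passed in 8 of 16 alternatives. HEK293T cells had 0 counts of TNFRSF10A, at least 146-fold lower than OCI-AML3 cells at 24 h in DMSO. TNFSF10, the TRAIL ligand, did not pass the test at either time in OCI-AML3 cells (log2 0.08 and 0.13). TNF, the ligand of the TNF receptors, had a log2 fold change of 0.09 at 4 h (adjusted p = 0.51) and rose from 68.5 to 108 CPM at 24 h (log2 0.66, SE 0.10, adjusted p = 2.0e-05), a call kept in all 16 alternatives.

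The regulators were the list with the most calls. Of 13 ER stress and p53 genes 11 rose and none fell at 4 h, 9 rose and 3 fell at 24 h, and 8 rose and 1 fell in HEK293T cells. These are 84.6%, 92.3% and 69.2% of the list, beside 37.5%, 51.1% and 25.7% of all genes. DDIT3, which encodes CHOP, rose from 11 to 454 CPM at 4 h (log2 5.36), from 10.9 to 219 CPM at 24 h (log2 4.33) and from 6.56 to 84.5 CPM in HEK293T cells (log2 3.69). TRIB3, a CHOP target, rose by 4.64, 1.99 and 2.53 on the log2 scale, ATF3 by 3.66, 0.56 and 2.24, and EIF2AK3, the gene of PERK, by 1.64, 1.47 and 1.31. The rise of ATF3 at 24 h was lost without the third DMSO or the third treated library (adjusted p = 0.05 and 0.077, range 0.0049 to 0.077). ATF5 rose by 1.07 and 2.0 in OCI-AML3 cells and fell by 0.39 in HEK293T cells, a fall that was lost without the second or the third DMSO or the third treated library (adjusted p = 0.051, 0.082 and 0.09). Of 7 genes of MCL1 turnover and transcription 2 rose at 4 h (28.6%, beside 37.5% of all genes), 3 rose and 2 fell at 24 h (71.4%, beside 51.1%), and 1 rose and 1 fell in HEK293T cells (28.6%, beside 25.7%). At 4 h DUSP6, a phosphatase of the kinase ERK, was past both thresholds (log2 1.25, adjusted p = 1.2e-07).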

How the data were processed

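Per the labels and the study's methods, the authors used STAR for alignment and RSEM for counting, with GRCh38 and the Ensembl annotation. The deposited table holds expected counts per gene, estimated counts of which 3.54 to 4.22% per library were not whole, and these were rounded to whole numbers. Whether counting used the strand is not given in the sources used here. A gene was tested if 8 or more libraries held 1 CPM of it or more, with CPM for this filter taken from library totals before TMM scaling, and the 7 groups were fitted together with edgeR 4.0.16 (R 4.3.3, TMM, quasi-likelihood test, Benjamini-Hochberg adjustment over 14012 genes). Calls needed an adjusted p no higher than 0.05, and both thresholds also a log2 fold change over 1 in size. Differences of effects were contrasts of the same fit. Libraries held 13838480 to 19961819 counts, CPM use these totals scaled by TMM factors, and 3 counts are then 0.137 to 0.231 CPM, a floor that covers counting error only. RPKM divide by the joined length of all exons annotated for a gene in GENCODE 44.

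Tested on simulated data for the 4 h comparison, with 200 of 14012 genes changed by a log2 of 1.5, the test recovered 95.5% of them with 13 false calls. Apart from this change, each simulated gene had the same mean in all groups, without outlying libraries or a GC trend. Smaller changes, such as those of every member except PMAIP1 in OCI-AML3 cells, were not simulated, so their recovery is not known. Alternatives were limma voom (3.58.1), DESeq2 (1.42.0), its size factors, no TMM, filters of 1 count or of 1 CPM in 3 libraries, the compared groups alone, a replicate block, leaving out each library and, chosen after seeing the data, removal of the trend with GC content or transcript length. The members and gene lists were chosen with earlier results of these data known. All members were named, and of each other list at most 3 genes per direction past both thresholds, genes past both in all 3 tunicamycin comparisons, and death receptors and BCL2 proteins. Genes like a member were named where it was past both thresholds. No 4 h samples of HEK293T cells were analysed here.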

Additional observations from a re-analysis of the deposited data

Results flagged for a closer look

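The effect of tunicamycin on OCI-AML3 cells differed between its late and early time, by the edgeR contrast of the effects, for 8 of 10 members, beside 35.3% of all genes. The log2 differences (24 h minus 4 h) were 0.43 for BCL2L11, 0.30 for BCL2, -0.26 for TNFRSF10B, -0.36 for BAX, -0.38 for PMAIP1, -0.55 for BAK1, -0.59 for BID and -0.70 for BBC3. The BCL2 call was lost without the second or the third DMSO library or the first or second treated library at 4 h, or without the second or the third DMSO library or the third treated library at 24 h (adjusted p = 0.053 to 0.11). The PMAIP1 call was lost without the first DMSO or the third treated library at 4 h, or without the first or second library of either group at 24 h (adjusted p = 0.056 to 0.093). The BAX call was lost without the third DMSO or the second treated library at 4 h, any DMSO library at 24 h or the third treated library at 24 h (adjusted p = 0.051 to 0.15). The TNFRSF10B call was lost without the first DMSO or the second treated library at 24 h (adjusted p = 0.072 and 0.066). Other settings lost calls too: over all 22 alternatives the adjusted p reached 0.11 for BCL2, 0.21 for PMAIP1 (length trend removed), 0.15 for BAX and 0.17 for TNFRSF10B (filter lowered to 1 count).

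Between lines at 24 h the effect (HEK293T minus OCI-AML3) differed by 0.82 on the log2 scale for BBC3, -1.0 for PMAIP1 and -0.31 for BCL2L11, 3 of 10 members beside 26.8% of all genes. The BCL2L11 call was lost without the first treated HEK293T library (-0.27, adjusted p = 0.087) and with the filter lowered to 1 count (-0.32, adjusted p = 0.092).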

How the results depend on the processing

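Of 480 values of the 10 members in the 3 tunicamycin comparisons under alternatives, 436 kept their direction and their side of the threshold. Of the rest, 21 changed sign, and 23 kept their sign and crossed the threshold (11 lost a call and 12 gained one), the latter in BCL2L11 and BCL2 in OCI-AML3 cells and BID, BAX and MCL1 in HEK293T cells. At 4 h MCL1 was -0.01 with the filter lowered to 1 count and with the GC trend removed, and BAK1 was 0.00 with voom, 0.01 with the compared groups alone, 0.06 with the GC trend removed and 0.03 with the length trend removed. At 24 h in OCI-AML3 cells MCL1 was -0.02 (GC), BCL2 -0.01 (length), BCL2L1 0.01 (no TMM) and 0.07 (GC), and BBC3 0.03 (no TMM), 0.18 (GC) and 0.05 (length). Leaving out single libraries gave -0.09 to 0.10 for BAK1 and -0.21 to 0.03 for BID at 4 h, and -0.10 to 0.08 for BCL2L1 and -0.11 to 0.14 for BBC3 at 24 h. The cause was not tested.

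With the filter lowered to 1 count, more genes passed both thresholds: 1401 instead of 885 at 24 h, 514 instead of 298 in HEK293T cells, 40 instead of 0 for DMSO at 4 h against untreated cells, 917 instead of 581 for DMSO over time and 10574 instead of 6335 between lines. Members whose effect differed between times numbered 5 without TMM, with 1 count or with the length trend removed and 4 with the groups alone, instead of 8 of 10 (35.3% of all genes passed in the fit of the report), and 5 to 7 without single libraries. Between lines there were 5 with the groups alone instead of 3 (26.8% of all genes), and 2 to 5 without single libraries. There 1 member, PMAIP1, instead of 0 passed both thresholds with voom, DESeq2, its size factors, no TMM, 1 CPM in 3 libraries, the groups alone or the length trend removed, and 0 to 1 without single libraries. Without single libraries 0 to 1 genes passed both thresholds for DMSO at 4 h.

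Whether replicate numbers pair the samples is not given in the labels. Correlations of same-numbered deviations ran from -0.14 to 0.13 in the tunicamycin comparisons. By replicate they were 0.10, 0.01 and 0.13 at 4 h, where the highest with another number were -0.02, 0.08 and 0.08. At 24 h in OCI-AML3 cells they were 0.01, -0.08 and -0.14 against 0.00, 0.18 and 0.09. In HEK293T cells they were 0.04, 0.06 and 0.12 against 0.03, 0.00 and -0.04. These small values do not settle the pairing. With the replicate block the 24 h call of BCL2L11 was lost (0.17, adjusted p = 0.051), BCL2 at 4 h passed (-0.19, adjusted p = 0.048), and the difference between lines for BID passed (0.43, adjusted p = 0.045).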
